A study of Mus musculus with 8 samples.

Results

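A set of 6 reference genes of metabolism, Alas1, G6pdx, Gusb, Sdha, Hprt and Oaz1, were read in 8 mouse lymph node libraries. They were chosen by symbol and make up 6 of the 770 genes of the deposited table. The NanoString nCounter PanCancer Immune panel for mouse, which counts barcoded probes molecule by molecule without amplification, was run on total RNA from 4 nodes labelled tumor-free and from 4 labelled tumor-bearing. These last held Eµ-myc lymphoma cells that arrived through the lymphatics, per the series description, which asks which transcripts mark malignant and immune cells there. In Eµ-myc mice a Myc transgene under the immunoglobulin heavy chain enhancer causes B cell lymphoma. The replicate numbers run from 1 to 4 in each group. Strain, age, sex, tumor dose and time, the state of the host and whether each node came from its own animal are not stated in the labels. The p-values therefore measure the spread among these 8 libraries, part of which may be technical.

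Reference genes are panel members picked because most cells make them at a steady level, and their geometric mean is commonly used to set the scale of a library. Those described here belong to pathways that every cell runs: heme synthesis, the pentose phosphate route, lysosomal breakdown, mitochondrial respiration, purine salvage and polyamine control. Nucleotide and polyamine synthesis are among the routes that Myc is known to drive in growing lymphoid cells. Of the 6, 5 encode enzymes or enzyme subunits. Oaz1 encodes ornithine decarboxylase antizyme, a protein inhibitor that steers ornithine decarboxylase to the proteasome, so the name metabolic enzyme holds for the other 5 only.

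The deposited values are counts multiplied by 1 factor per library, from 0.822 to 1.29, and whole counts could be recovered from them, 659771 to 819257 per library. Myc ran against the labels: its deposited value was 9249.5 to 33147 in the libraries labelled tumor-free, against 2996 to 3281 in those labelled tumor-bearing. Groups are therefore named by their labels throughout, and each direction below depends on those labels. The summed T cell markers (8 of 8 measured, none at 0) ranged from 5003 to 28870 in the libraries labelled tumor-free, with the highest in replicate 3, and stood between 32169 and 38801 in the group labelled tumor-bearing. The summed B cell markers (7 of 7) ranged from 15676 to 19560 and from 12392 to 22749, the macrophage markers (7 of 7) from 1425 to 1619 and from 622 to 970, and the vessel and stroma markers (6 of 7 measured) from 1422 to 2229 and from 2004 to 2778. Lymph node marker transcripts were thus present in each library. Each sum follows its most abundant genes, and members of 2 lists differed in direction. Over the vessel and stroma genes the median log2 difference, labelled tumor-bearing minus labelled tumor-free, was -0.80. It ran from -3.34 (Thbd) to 0.66 (Pecam1, the most abundant of them). Over the B cell genes the median was -0.17, with a range from -1.77 (Pou2af1) to 1.72 (Cr2). In whole nodes, fewer cells of a type and less RNA per cell cannot be told apart.

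The members lie on 5 chromosomes in the RefSeq annotation of GRCm38.p6, which was used for names and sequences, since nCounter values carry no coordinates. Gusb is a protein-coding gene on the minus strand of chr5:129989011-130003049, Hprt lies on the plus strand of chrX:52988078-53021660 and Oaz1 on the plus strand of chr10:80826656-80829290. Alas1 lies on the minus strand of chr9:106233455-106247954, G6pdx on the minus strand of chrX:74409483-74428880 and Sdha on the minus strand of chr13:74322255-74350240. The 200 bases before the annotated gene start are shown for Gusb and Hprt, the members with the largest group differences, and for Sdha and G6pdx, those with the smallest. Capitals mark matches, on either strand, to any of 4 short motifs. These are the GC box GGGCGG, the pentamer CCAAT that nuclear factor Y can bind, a promoter element of the form TATAAA, and the E-box CACGTG that Myc with Max can bind. The motifs do not overlap each other in the windows shown. Sequences are from RefSeq and read 5′ to 3′ along the gene.
Gusb, chr5:130003050-130003249, minus strand: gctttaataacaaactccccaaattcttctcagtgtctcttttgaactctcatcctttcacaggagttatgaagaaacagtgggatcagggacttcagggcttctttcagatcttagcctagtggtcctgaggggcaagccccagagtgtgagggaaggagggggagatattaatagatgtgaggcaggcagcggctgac
Hprt, chrX:52987878-52988077, plus strand: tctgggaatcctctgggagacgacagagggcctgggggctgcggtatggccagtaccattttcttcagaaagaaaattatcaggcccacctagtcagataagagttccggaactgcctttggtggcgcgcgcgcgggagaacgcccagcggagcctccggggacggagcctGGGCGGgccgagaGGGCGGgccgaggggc
Sdha, chr13:74350241-74350440, minus strand: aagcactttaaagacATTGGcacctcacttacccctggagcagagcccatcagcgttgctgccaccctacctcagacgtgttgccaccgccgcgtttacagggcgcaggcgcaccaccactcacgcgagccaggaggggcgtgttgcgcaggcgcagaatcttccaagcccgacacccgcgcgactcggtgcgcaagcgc
G6pdx, chrX:74428881-74429080, minus strand: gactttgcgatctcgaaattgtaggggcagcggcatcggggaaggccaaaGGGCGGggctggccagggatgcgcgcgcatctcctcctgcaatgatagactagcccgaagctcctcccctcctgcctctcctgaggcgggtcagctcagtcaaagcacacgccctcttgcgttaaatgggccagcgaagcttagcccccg

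Over the whole 250 bases before the start, CACGTG was found in 0 of the 7 member windows (Alas1 has 2 annotated starts), against 6.02% of all 32851 windows in the table. TATAAA was found in 0 of 7 (12.4% of all windows), GGGCGG in 3 of 7 (32.7%) and CCAAT in 2 of 7 (33.8%). Hprt held 2 GC boxes, G6pdx and 1 start of Alas1 held 1 each, and Sdha and Oaz1 held 1 CCAAT each. The Gusb window held none of these 4 motifs. It had a GC content of 49.6% and 3 CpG dinucleotides, near the medians of all windows (52.4% and 6). The other member windows had 58.0% to 74.4% GC and 15 to 42 CpG. Such matches describe the letters of these windows, and no binding was measured.

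All 6 members passed the filter on low values (a deposited value of 20 or more in at least 4 libraries), as did 609 of the 770 genes. Each had a lower mean log2 level in the nodes labelled tumor-bearing. Gusb and Hprt fell at an adjusted p under 0.05, and Oaz1, Alas1, G6pdx and Sdha did not pass the test (limma on log2(value + 1), Benjamini-Hochberg over the 609 genes). Among all genes tested, 10.7% were called lower and 27.6% higher. The median log2 difference was -0.52 over the members and 0.36 over all genes tested, of which 34.2% had a negative difference.

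Gusb encodes beta-glucuronidase, the lysosomal enzyme that removes glucuronic acid from glycosaminoglycans. Its deposited values were 950, 998, 510 and 1350 in replicates 1 to 4 labelled tumor-free, and 570.1, 397, 308 and 352 in replicates 1 to 4 labelled tumor-bearing. Tumor-free replicate 3 stood low and lay below tumor-bearing replicate 1, so the groups overlapped by these libraries, while the other 3 tumor-bearing values lay below every tumor-free one. Means were 952 ± 345 and 407 ± 115 (SD, n = 4 each), and Gusb fell by 1.18 on the log2 scale (SE 0.32, 95% confidence interval -1.89 to -0.47, limma adjusted p = 0.0253). The exact two-sided permutation test over the 8 libraries gave p = 0.0571, where the smallest p that 70 splits allow is 0.0286. Gusb was no longer called by limma without tumor-free replicate 1 (adjusted p = 0.0536) or 2 (0.0816), or without tumor-bearing replicate 2 (0.0678), 3 (0.0569) or 4 (0.0583). Without tumor-free replicate 3 the difference was -1.45 (limma adjusted p = 0.000744).

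Hprt encodes hypoxanthine-guanine phosphoribosyltransferase, which returns free purine bases to the nucleotide pool. The nodes labelled tumor-free gave deposited values of 5475, 4930.2, 3302 and 7576 for replicates 1 to 4, and the nodes labelled tumor-bearing 3352, 2674, 2476 and 2441. Again tumor-free replicate 3 was the low library of its group, just below tumor-bearing replicate 1, and the ranges overlapped only through this pair. Hprt averaged 5321 ± 1764 and 2736 ± 424 (SD, n = 4 each), and fell by 0.91 (SE 0.26, interval -1.48 to -0.34, limma adjusted p = 0.0265; exact permutation p = 0.0571). The call was lost without each of the other libraries: tumor-free replicate 1 (adjusted p = 0.0585), 2 (0.0816) and 4 (0.0501), and tumor-bearing replicate 1 (0.0539), 2 (0.0678), 3 (0.0579) and 4 (0.0627). Leaving out tumor-free replicate 3 gave -1.12 (limma adjusted p = 0.000922).

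Oaz1 is read at high counts, 5176 to 15100 recovered counts per library. Its deposited values were 10709, 9068, 7550.3 and 14320 in the libraries labelled tumor-free and 9084, 7033, 6241 and 5626 in those labelled tumor-bearing, for replicates 1 to 4. Tumor-bearing replicate 1 lay above tumor-free replicates 2 and 3. The log2 difference was -0.56 (SE 0.24, interval -1.10 to -0.01, limma adjusted p = 0.0894, exact permutation p = 0.0857). Without tumor-free replicate 3 it was -0.70 and was called (limma adjusted p = 0.0199).

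**Figure D1:**
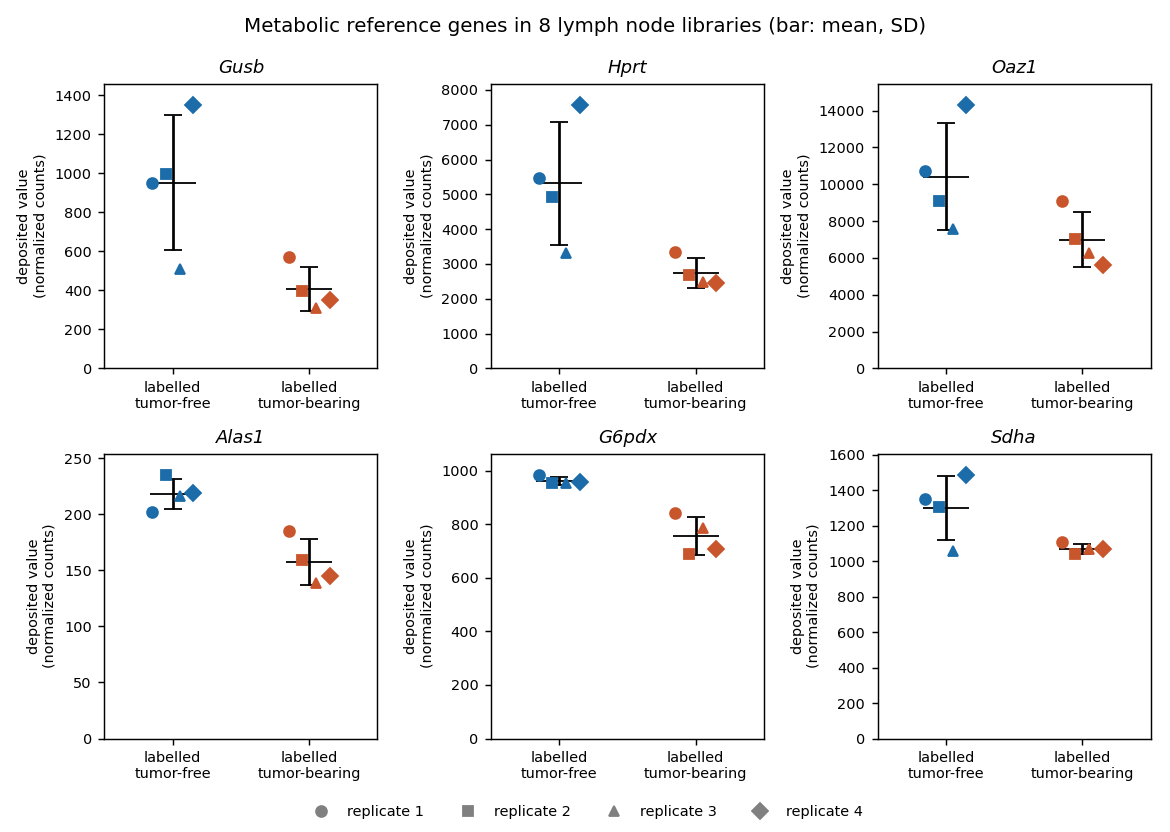
Deposited value (normalized counts, linear axis from 0) of each metabolic reference gene in the 4 libraries labelled tumor-free and the 4 labelled tumor-bearing. Points are libraries with a symbol per replicate number, and black bars are the mean and SD. Tumor-free replicate 3 is the lowest of its group for Gusb, Hprt, Oaz1 and Sdha, and the groups do not overlap for Alas1 and G6pdx.

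Alas1 encodes 5-aminolevulinate synthase, the rate-limiting first enzyme of heme synthesis outside the red cell lineage. Its values were 202, 235, 216 and 219 in replicates 1 to 4 labelled tumor-free and 185, 159, 139 and 145 in those labelled tumor-bearing. Every tumor-bearing library lay below every tumor-free one, and tumor-free replicate 3 lay between the others of its group. The log2 difference was -0.48 (SE 0.20, interval -0.93 to -0.02, limma adjusted p = 0.0816), and the exact permutation test gave p = 0.0286, the smallest it can give. Alas1 was the member with the fewest counts, 133 to 286 per library, so that counting error alone is 5.91% to 8.67% of a value. The coefficient of variation between libraries was 6.21% in the tumor-free group and 13.1% in the tumor-bearing group.

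G6pdx encodes the X-linked glucose-6-phosphate dehydrogenase, which opens the pentose phosphate pathway and supplies NADPH. It read 984, 952, 953 and 956 in the tumor-free group, and 840.3, 689, 787 and 706 in the tumor-bearing group, for replicates 1 to 4. The tumor-free values were almost level, with a coefficient of variation of 1.59%, which is below the mean counting error of 3.12% in those libraries. The groups did not overlap, with a log2 difference of -0.35 (SE 0.16, interval -0.71 to 0.0043, limma adjusted p = 0.0952, exact permutation p = 0.0286). Probe sequences were not used here, so a share of the counts from the related gene G6pd2 cannot be told apart, nor one from the pseudogene Oaz1-ps for Oaz1.

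Sdha encodes the flavoprotein subunit of succinate dehydrogenase, which serves both the citric acid cycle and the respiratory chain. The tumor-free values were 1350, 1305, 1057 and 1487, and the tumor-bearing values 1108, 1039, 1067 and 1067, in the order of replicate numbers. The tumor-bearing libraries were close together (coefficient of variation 2.64%, counting error 3.20% on average), and tumor-free replicate 3 lay among them. The log2 difference of -0.27 (SE 0.17, interval -0.64 to 0.11) had an adjusted p of 0.209 by limma and an exact permutation p of 0.114. It was called without tumor-free replicate 3, at -0.37 (limma adjusted p = 0.0314).

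The 4 values of each group did not overlap for 2 of the 6 members, Alas1 and G6pdx, both lower in the nodes labelled tumor-bearing. This happened in that direction for 10.2% of all genes tested. The pair that did not overlap is not the pair that limma called: Gusb and Hprt had the larger differences and Alas1 and G6pdx the smaller spread. Without tumor-free replicate 3, 4 members were called lower (Gusb, Hprt, Oaz1 and Sdha), where 15.3% of all genes were. That count was 1 without tumor-free replicate 4 (8.54% of all genes) and without tumor-bearing replicate 1 (8.05%). It was 0 without tumor-free replicate 1 (3.28%) or 2 (0.821%) and without tumor-bearing replicate 2 (1.81%), 3 (0%) or 4 (0.821%). In each of these 5 fits, 2 of the 6 members were lower at an unadjusted limma p under 0.05. In the same order, so were 11.7%, 12%, 12.3%, 10.8% and 10.7% of all genes tested.

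Among the libraries labelled tumor-free, Gusb, Hprt and Oaz1 were highest in replicate 4 and lowest in replicate 3, and so was Sdha, with a smaller range. For Gusb, the highest of the 8 libraries was 4.39 times the lowest, for Hprt 3.10 times and for Oaz1 2.55 times, against 1.43 times for Sdha and G6pdx and 1.69 times for Alas1. The summed growth-linked genes (Myc, Birc5, Mif, Tfrc and Vegfa) were 49717, 51317, 15606 and 62779 in replicates 1 to 4 labelled tumor-free, also lowest in replicate 3 and highest in replicate 4. The summed T cell markers ran the other way, at 12007, 8803, 28870 and 5003. The part of these cell and growth markers in the member values was not tested.

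**Figure D2:**
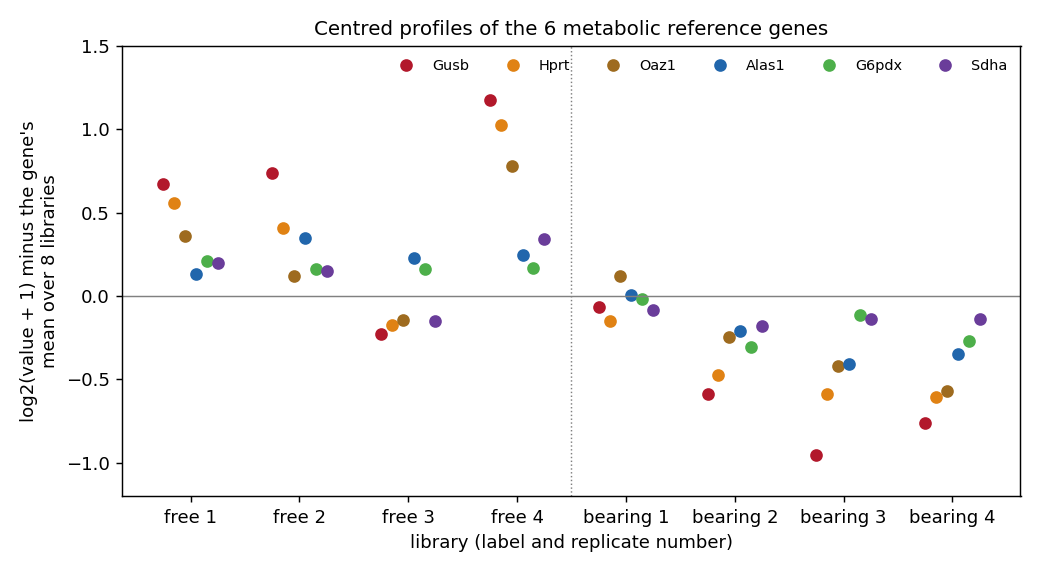
Level of each metabolic reference gene in each library, as log2(value + 1) minus the gene's mean over the 8 libraries, with libraries named by label and replicate number on the x axis. Each point is 1 gene in 1 library. In tumor-free replicate 3, Gusb, Hprt, Oaz1 and Sdha lie below 0 and Alas1 and G6pdx above it.

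A ratio of 2 members within a library does not depend on the library's scaling factor, apart from the pseudocount. Of the 15 pairs, 3 had ratios that did not overlap between the groups, against 36.8% of all pairs of genes tested. No pair passed the exact permutation test after adjustment over the 15 (smallest adjusted p = 0.143), and 3 had p = 0.0286 before adjustment. The number that did not overlap was 9 of 15 without tumor-free replicate 3, against 63.1% of all pairs of genes tested, and 6 of 15 without tumor-bearing replicate 1, against 47.3%. The 3 pairs are named because their groups did not overlap. Probes differ in efficiency, so the ratios are compared between libraries and not read as relative abundance. The log2 ratio of Gusb to Oaz1 was -3.49, -3.18, -3.89 and -3.41 in the libraries labelled tumor-free and -3.99, -4.14, -4.34 and -3.99 in those labelled tumor-bearing, a difference of -0.62. Gusb was thus lower relative to Oaz1 in each tumor-bearing library. Hprt relative to Oaz1 differed by -0.35, from -0.99 ± 0.14 to -1.34 ± 0.10, and Sdha relative to Hprt by 0.64, from -1.98 ± 0.29 to -1.34 ± 0.19 (SD, n = 4 each). The most even pair over the 8 libraries was Alas1 with G6pdx (SD of the log2 ratio 0.15) and the least even G6pdx with Gusb (SD 0.63).

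The other 14 reference genes, which serve mainly transcription, splicing and translation were read in the same libraries. Of these, 6 were called lower (Abcf1, Eef1g, Polr1b, Ppia, Sf3a3 and Tubb5) and 0 higher, where 10.7% and 27.6% of all genes tested were. Their median log2 difference was -0.47, with a range from -1.37 (Polr1b, a subunit of RNA polymerase I) to 0.44 (Polr2a, the largest subunit of RNA polymerase II). On either reference-gene scaling 2 of the 14 were lower and 2 higher. These 14 genes set or help set those scales, so their mean difference lies near 0 there by construction. With the same median, the same total, quantile normalization and edgeR, 8 or 9 were lower, where 17.9% to 24.8% of all genes were. With DESeq2 12 were lower, where 29.7% of all genes were. In these 5, 0 of the 14 were higher, against 18.9% to 30.7% of all genes. Without tumor-free replicate 3, 8 were lower and 1 higher, where 15.3% and 43.3% of all genes were. The 5 fits that called no member called none of the 14, and called 0% to 3.28% of all genes lower and 0% to 0.821% higher. The geometric mean of the 6 members was 1545 ± 288 in the tumor-free and 995 ± 141 in the tumor-bearing group (SD, n = 4 each). That of the other 14 genes was 1979 ± 342 and 1377 ± 126. The log2 ratio of the 2 geometric means was -0.38, -0.35, -0.38 and -0.33 in the libraries labelled tumor-free and -0.37, -0.50, -0.50 and -0.52 in those labelled tumor-bearing. The members were lower relative to the other reference genes in 3 of the 4 tumor-bearing libraries, and replicate 1 lay among the tumor-free ones.

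**Figure D3:**
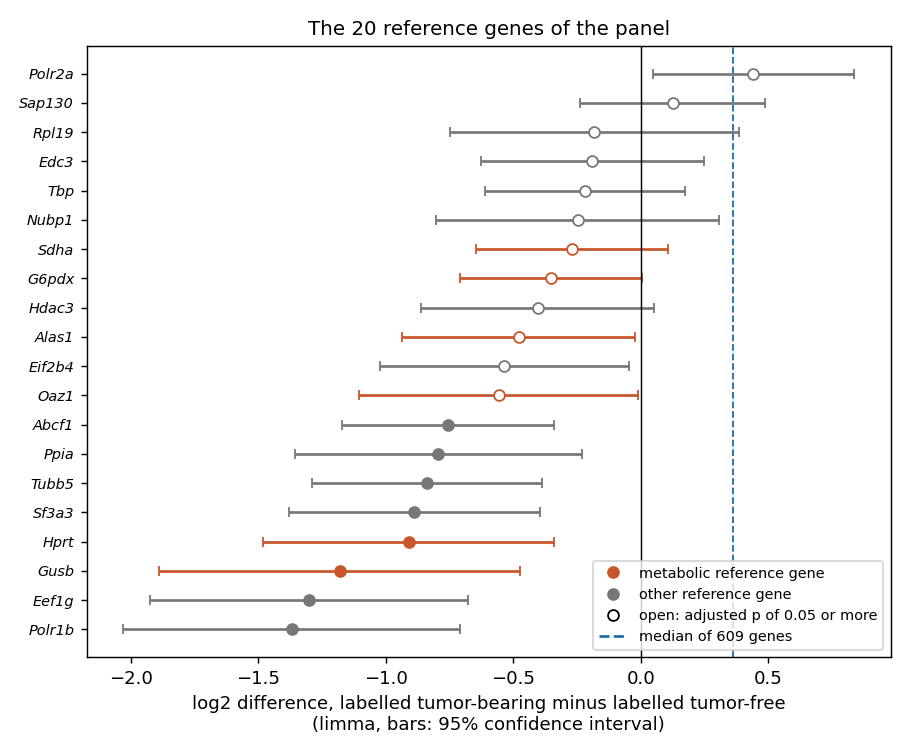
Log2 difference of the 20 reference genes, labelled tumor-bearing minus labelled tumor-free, with 95% confidence intervals from limma. Filled points have an adjusted p under 0.05, orange marks the metabolic reference genes, and the dashed line is the median of the 609 genes tested, 0.36. The metabolic members run from -1.18 (Gusb) to -0.27 (Sdha) and all lie below that line.

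In the deposited values the members differed in evenness over the 8 libraries. These SDs and ranks include the group difference, depend on the scaling and were not computed on other scalings. The SD of the log2 level was 0.20 for Sdha, 0.21 for G6pdx and 0.29 for Alas1, which are ranks 41, 43 and 92 from the most even of the 609 genes. It was 0.44 for Oaz1 (rank 198), 0.60 for Hprt (rank 313) and 0.78 for Gusb (rank 429), so Hprt and Gusb varied more than the median gene of the panel (0.59). The median SD was 0.36 over the members and also 0.36 over the other 14 reference genes, among which Sap130 was the most even (0.11) and Polr1b the least (0.84). No combination of the 20 reference genes, out of 1048575, had the same geometric mean in all libraries. The most even combination, Sdha with Polr2a, Sap130 and Tbp, still varied by 0.024 (SD, log2), while rounding of the deposited values accounts for at most 5.2e-05.

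The direction of 3 members depended on the scaling. Scaled on the other 14 reference genes, Alas1, G6pdx and Sdha had log2 differences of 0.03, 0.16 and 0.24, and Oaz1 of -0.05, while Gusb fell by 0.67 (limma adjusted p = 0.0326) and Hprt stood at -0.40 (adjusted p = 0.0662). In both, 1 member was called lower, where 6.73% of all genes were on the 14 and 6.24% on the 20. With all 20 reference genes as the scale, which include the members, Alas1, G6pdx and Sdha were also positive, at 0.06, 0.19 and 0.28. The remaining scalings moved the members down, apart from Oaz1 under quantile normalization (-0.51). With the same total per library, quantile normalization and the same median, 5 of the 6 members were called lower, where 17.9%, 19.9% and 24.8% of all genes were. On the recovered counts all 6 were called lower by edgeR (23.5% of all genes) and by DESeq2 (29.7%). Over the deposited values, the 5 rescalings, edgeR and DESeq2, counted below as 8 scalings, Gusb was the only member called each time, with log2 differences from -1.73 to -0.64.

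The whole panel moved with the scaling. The median log2 difference over the genes tested was 0.36 in the deposited values, 0.91 and 0.87 when scaled on the 20 and on the 14 reference genes, 0.22 with the same total, 0.09 with quantile normalization, -0.17 with the same median, 0.03 for edgeR and -0.0043 for DESeq2. Of the genes called, the rises made up 72.1% in the deposited values, 90.5% and 89.5% on the reference genes, 63.2% with the same total, 59.5% with quantile normalization, 43.2% with the same median, 45.0% with edgeR and 46.4% with DESeq2. Relative to that median, Gusb lay at -1.54 in the deposited values and between -1.71 and -1.54 over the 8 scalings, and Hprt at -1.27 and between -1.41 and -1.14. Oaz1 ranged from -1.02 to -0.60, Alas1 from -0.92 to -0.84, G6pdx from -0.77 to -0.71 and Sdha from -0.68 to -0.63. A factor per library shifts all genes nearly alike, so these distances are almost fixed by construction over the deposited values and the 4 rescalings by a factor. The same holds largely for edgeR and DESeq2, which also scale by 1 factor per library and differ mainly in how the difference is fitted. Quantile normalization is not such a factor. Under it the distances ran from -1.63 (Gusb) to -0.60 (Oaz1).

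**Figure D4:**
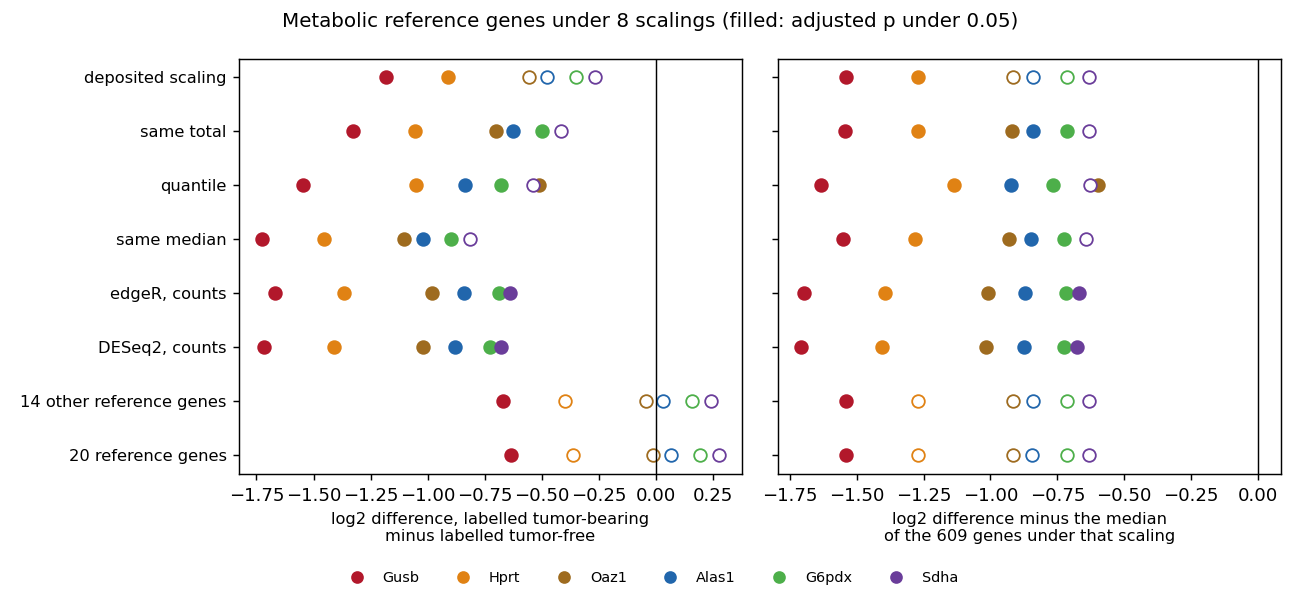
Left, log2 difference (labelled tumor-bearing minus labelled tumor-free) of each metabolic reference gene under 8 scalings. Right, the same minus the median of the 609 genes under that scaling, where all points lie below 0, nearly level by construction for the scalings by a factor. Filled points had an adjusted p under 0.05 for the difference on the left. Alas1, G6pdx and Sdha cross 0 on the left under the 2 scalings on reference genes.

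The 2 nearest profiles differed between the members, though some members shared genes among their 5 nearest. Likeness was measured as the root mean square difference between centred log2 profiles over the 8 libraries, which 1 factor per library does not change. Nearest to Gusb were Eef1g, a translation elongation factor (0.14), and Smn1, which serves assembly of splicing particles (0.15), against a median of 0.98 over all genes. For Hprt they were the proteasome subunit Psmb7 (0.07) and the apoptosis gene Bid (0.08), and for Oaz1 the proteasome subunit Psma2 and the kinase Map2k2 (both 0.09). Sdha lay nearest to Cyfip2, a part of the actin-regulating WAVE complex, and to the integrin Itgb1 (both 0.06). Among the genes close to G6pdx was the kinase Mapk8 (0.11), and Alas1 lay nearest to Tlr8, an endosomal RNA sensor (0.11), and G6pdx (0.14). The median over all genes was 0.59 to 0.86 for these 5 members.

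Other genes of the same compartments did not share one direction. Of all genes tested, 27.6% were called higher and 10.7% lower in the deposited values. On the 20 and 14 reference genes, 59.6% and 57.3% were higher, and 6.24% and 6.73% lower. With quantile normalization, the same median, edgeR and DESeq2, 18.9% to 29.2% were higher and 19.9% to 29.7% lower. Among 5 purine and adenosine genes, 3 rose (Nt5e, Adora2a and Dpp4) and 0 fell, with a median log2 difference of 1.02. Nt5e, the ecto-enzyme that makes adenosine, led them at 1.09 (limma adjusted p = 0.0407). None of these was called with edgeR or with the same median. Ada, which deaminates adenosine, had a log2 difference of 0.03. Of 10 other metabolic enzymes measured, 5 passed the filter, and 3 of these rose, Cmah, Fut7 and Hsd11b1 (5 on the 20 reference genes, 4 on the 14, 2 with edgeR, DESeq2 or the same median). The largest rise was that of Hsd11b1, which reactivates glucocorticoids, at 1.93 (adjusted p = 0.0233, limma). Of 9 genes listed here as lysosomal 1 rose, Ctsw, a cathepsin of cytotoxic lymphocytes, at 1.94 (adjusted p = 0.0269, limma), and 0 fell. Their median of 0.17 turned negative with quantile normalization, the same median, edgeR and DESeq2, with 3 or 4 genes lower in each, while on either reference-gene scaling 5 were higher and 0 lower. Lamp1 and Lamp2, membrane proteins of the lysosome that holds the Gusb product, had log2 differences of -0.42 and -0.60. Of 6 mitochondrial genes 3 fell (C1qbp, Bid and Mavs) and 1 rose (Bcl2), with a median of -0.56 that shrank to -0.01 on the 20 reference genes. On either reference-gene scaling the calls turned to 1 lower and 2 higher. The largest change was in C1qbp at -2.27 (adjusted p = 0.0131, limma). The 5 growth-linked genes, a list chosen with earlier results of these data known, fell in full, at a median of -2.68.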

How the data were processed

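The authors deposited 1 table of normalized nCounter signal on a linear scale, with a column per library. The sources used here do not give how its factors were set or whether background was taken off. Every value (100%) was a whole multiple of its library's factor within a tolerance of 0.1 of 1 count, and whole counts were recovered by dividing by that factor. No library was a copy of another of its group (chi-square over genes, 3.26 to 287 for each degree of freedom). Counting error is the square root of the recovered count and covers counting only.

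Genes at 20 or more in at least 4 libraries were tested on the log2(value + 1) scale in R 4.3.3 by limma 3.58.1, with group as the only term, trend, two-sided p and Benjamini-Hochberg adjustment over 609 genes (threshold 0.05). Fold changes on this scale understate those of low genes. The fit was tested on simulated data. Alternatives were scalings, pseudocounts, filters, variance models, a replicate block, leaving out each library, and the recovered counts in edgeR 4.0.16 or DESeq2 1.42.0. Single values were tested with exact permutation over libraries. All members are named, the other reference genes are given by count and extremes, the lists by their counts and leading called gene, and each member with its 2 nearest profiles, of which 1 is not reported here. Genes named among called list members beyond the leading one, Ada, Sap130 and the 3 ratio pairs were named after their values were seen. So were the genes of the lysosomal list other than Ctsw, and the extremes of the B cell and the vessel and stroma lists. Members and lists were chosen with earlier results of these data known. Promoter windows came from RefSeq (GRCm38.p6), where all 6 members matched by symbol.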

Additional observations from a re-analysis of the deposited data

Results flagged for a closer look

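One value stood apart from its group. G6pdx in tumor-free replicate 1 read 984 against 952, 953 and 956 in the other tumor-free libraries, and its gap to the nearest was 0.888 of the whole range of the group, above the limit of Dixon's test for 4 samples. The counting error of these libraries, 3.12% of a value on average, is larger than the coefficient of variation of 1.59%. Of the 42 groups of 4 values examined (members and their ratios), 1 was marked in this way, where chance marks about 1 in 20.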

How the results depend on the processing

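Members called lower, 2 in the deposited values, numbered 1 on either reference-gene scaling, 5 with the same median, the same total and quantile normalization, and 6 with edgeR and DESeq2, with 0 higher throughout. Genes lower, 65, numbered 38 and 41 on the 20 and 14 reference genes, 151 with the same median, 109 with the same total, 121 by quantiles, 143 in edgeR and 181 in DESeq2. Genes higher, 168, numbered 363 and 349 on the 20 and 14 reference genes. Hprt was no longer called on these 2 scalings (-0.36 and -0.40, limma). On them the sign turned for Alas1 (0.063 and 0.029), G6pdx (0.19 and 0.16) and Sdha (0.28 and 0.24). Under the same median, the same total, the quantile scaling, edgeR and DESeq2, in this order, newly called were Alas1 (-1.02, -0.62, -0.84, -0.84 and -0.88), G6pdx (-0.90, -0.50, -0.68, -0.69 and -0.73) and Oaz1 (-1.10, -0.70, -0.51, -0.98 and -1.02). Sdha was called with edgeR and DESeq2 only (-0.64 and -0.68), apart from 1 fit without a library. The cause of these changes was not tested beyond the shift of the panel median. Without 1 library each, members lower ranged from 0 to 4, genes lower from 0 to 93 and higher from 0 to 264. Log2 differences then ranged from -0.56 to -0.42 for Alas1, -0.40 to -0.31 for G6pdx, -1.45 to -0.99 for Gusb, -0.37 to -0.20 for Sdha, -1.12 to -0.72 for Hprt and -0.70 to -0.39 for Oaz1. Without tumor-bearing replicate 3 limma called 0 genes, against 66 lower and 220 higher at an unadjusted p under 0.05, while edgeR and DESeq2 on all libraries called 260 and 338. Member pairs with separate ratios, 3, numbered 3 to 9, with 9 without tumor-free replicate 3 and 6 without tumor-bearing replicate 1. Pseudocounts, filters and variance models left each member on its side of the threshold. The replicate numbers were not taken as pairs: same-numbered libraries had correlated deviations (r over 0.1) in 1 of 4 cases, from -0.04 to 0.55. The 0.55 was that of the libraries numbered 1, and differently numbered libraries ranged from -0.36 to 0.21. With the replicate block, 65 genes were lower and 173 higher, and Gusb and Hprt were called among the members. Depth limits Alas1 most, with 133 counts in its lowest library.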
